A study of Mus musculus with 30 samples.

Results

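The superoxide dismutases, catalase and the peroxiredoxins are the enzymes that take superoxide and hydrogen peroxide apart in mammalian cells. Their genes were followed in the hippocampus of male BALB/c mice over 6 groups of 5 mice. The members were chosen by name as the rows of the deposited table whose Ensembl identifiers map to Sod1, Sod2, Sod3, Cat and Prdx1 to Prdx6. All 10 symbols were found, out of 21412 genes in the table, and all 10 passed the filter on low values. Ctr, LD and HD mice were 2 to 3 weeks old on arrival, were housed singly and ate their feeds for 11 weeks. Ctr mice ate feed without added methylmercury (MeHg), an organic mercury compound found in seafood. The feed held 0.28 mg MeHg per kg for LD mice and 5 mg per kg for HD mice. MeHg was mixed with cysteine, and the Ctr feed also received cysteine, so that all 3 groups shared it. Se_Ctr, Se_LD and Se_HD mice received selenium, given in the title of the series as dietary selenium-methionine, with no mercury, a low dose or a high dose in the design text. Their doses, age and time on feed are not given in the sources used here.

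Superoxide dismutases turn superoxide, a by-product of respiration and of NADPH oxidases, into hydrogen peroxide. Catalase breaks hydrogen peroxide down in peroxisomes, whereas peroxiredoxins reduce it, and lipid peroxides, with a reactive cysteine that thioredoxin or glutathione then restores. MeHg binds thiols and selenium, and thiol- and selenium-dependent antioxidant enzymes are known targets of it in brain.

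Each library came from the RNA of a single sample, and the values below are normalized counts, the reads on a gene divided by a size factor for the library. The reads on genes were between 5768208 and 11510521 per library. The ranges of the 6 groups overlapped. The summed level of 10 hippocampus markers overlapped between all 6 groups, at 7095 to 12490 normalized counts in HD and 8091 to 11790 in Ctr mice, and no marker of that list was at 0 in a group. Some libraries stood apart. Summed microglia markers were 9510 in HD library 9 and 11160 in HD library 21, against at most 6278 in the other 28 libraries. Choroid plexus markers, of which Ttr made up 86.2% of the sum, ran from 330 to 38920 over the libraries and spread widely within every group. The hippocampus is bulk tissue, in which fewer cells of a type and less RNA per cell cannot be told apart.

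The members were ordered by their level in Ctr mice after counts were divided by the exon length of the gene. Sod1, the copper and zinc enzyme of the cytosol, was the highest with 1160 ± 185 (SD, n = 5) normalized counts per kb, and its range did not touch that of the next gene. Prdx2 with 425, Sod2 with 419, Prdx1 with 390, Prdx5 with 362 and Prdx6 with 316 normalized counts per kb followed, and each of these overlapped its neighbour in the order. Prdx3, the peroxiredoxin of the mitochondrial matrix, with 249 ± 13.1 and Cat with 136 ± 4.97 (SD, n = 5) normalized counts per kb each stood clear of their neighbours. Prdx4, the peroxiredoxin of the endoplasmic reticulum, with 25.3 ± 3.27 and Sod3, the secreted dismutase, with 24.9 ± 6.09 (SD, n = 5) normalized counts per kb were the lowest and overlapped. Prdx4 rested on 22 to 83 reads and Sod3 on 47 to 170 reads per library, and every other member had at least 213 reads in each library.

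**Figure D1:**
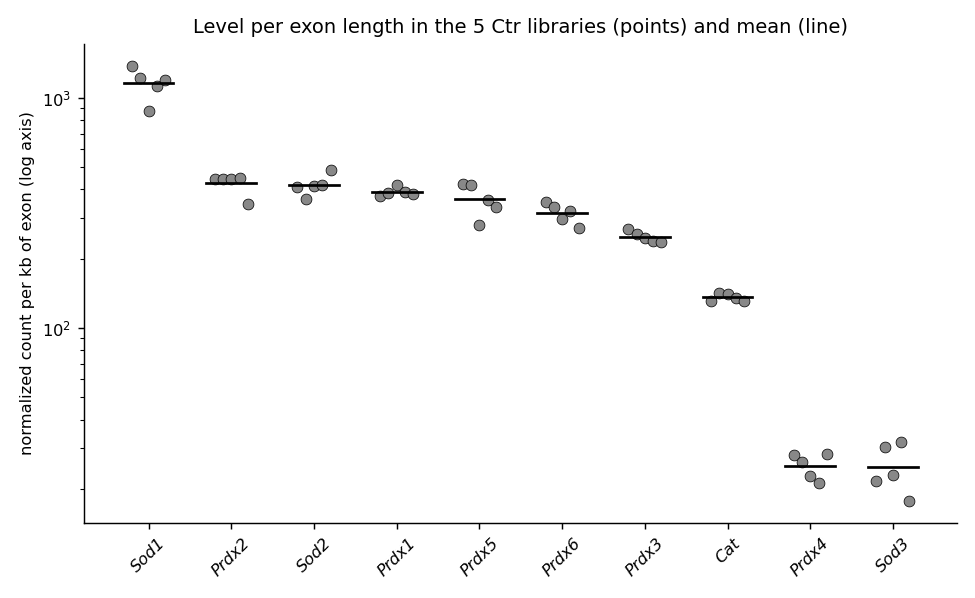
Normalized counts per kb of exon (log axis) of the 10 genes in the 5 Ctr libraries. Points are libraries and lines are group means. Sod1 lies above all other members, and Prdx4 and Sod3 lie together at the bottom.

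The first question was whether the high dose of MeHg changed these transcripts. Prdx6, Sod3, Prdx1 and Cat were higher in HD mice than in Ctr mice, at 1.49, 1.43, 1.28 and 1.22 times the Ctr level on the scale of the fit. The other 6 members did not pass the test. A gene was counted where limma's F test over Ctr, LD and HD and its contrast of 2 groups both had an unadjusted p under 0.05, on log2 of the normalized count plus 1. Thus 4 of 10 members were counted, all higher, where 5.09% of all 20031 genes tested were counted and 3.36% were counted as higher. The members' median log2 fold change was 0.15, beside 0.01 over all genes tested. After Benjamini-Hochberg adjustment over all genes 0 members passed at 0.05, as did 0 with edgeR's quasi-likelihood test and 1, Prdx6, with DESeq2 on the recovered reads. Of all genes 0.13% passed the adjusted threshold in limma's test and 0.978% in DESeq2.

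Prdx6, a peroxiredoxin with a single reactive cysteine that also reduces phospholipid hydroperoxides, had the largest of these differences. Its values in HD mice were 1146, 1621, 1624, 1933 and 2570 normalized counts, and in Ctr mice 1001, 1094, 1179, 1228 and 1294. Of the HD libraries 4 lay above every Ctr library, and the fifth lay inside the Ctr range. Its log2 fold change was 0.57 with a standard error of 0.15 and a 95% interval of 0.27 to 0.88 (limma, adjusted p = 0.139). An exact two-sided permutation test of 5 against 5 gave p = 0.0317, where the smallest value it can give is 0.00794. HD library 21 held the highest value and HD library 9 the next, and without them the log2 fold change was 0.32 (adjusted p = 0.70) and Prdx6 was still counted.

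Prdx1, a widely expressed cytosolic peroxiredoxin, was also higher in most HD libraries. HD mice had 1262, 1411, 1415, 1419 and 2289 normalized counts, and Ctr mice had 1139, 1160, 1178, 1182 and 1273. Again 4 HD libraries lay above every Ctr library, and HD library 21 stood apart from the other 4. The library inside the Ctr range was HD library 27 for Prdx1 and HD library 15 for Prdx6. A log2 fold change of 0.36 with a standard error of 0.12 resulted (limma, adjusted p = 0.292), and the exact permutation p was 0.0159. Without HD library 21 it was 0.21 and was still counted, and without HD libraries 9 and 21 it was 0.20 (adjusted p = 0.777) and the F test was no longer passed.

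The summed markers of glial cells were also higher in HD than in Ctr mice. Of 16 microglia markers 14 were counted as higher in HD than in Ctr mice, and their summed level was 4618 to 11160 normalized counts in HD and 3599 to 3936 in Ctr libraries. Of 12 astrocyte markers 4 were counted as higher, and their summed level was 62110 to 95470 in HD and 51640 to 60790 in Ctr libraries. No marker of either list was at 0 in any group, and HD libraries 21 and 9 had the highest sums of both lists. The remaining HD libraries did not follow the order of these sums. HD library 27 had the lowest HD sums of both lists and a Prdx6 value of 1624. HD library 15 had sums of 5157 and 64670 and the lowest HD value of Prdx6, 1146. Prdx1 was 1419 in HD library 9, beside 1411 in library 3 and 1415 in library 15. In Se_HD mice the microglia sum was 3799 to 4433 and the astrocyte sum was 52280 to 55560, both below the lowest HD library. The part of these markers in the Prdx6 and Prdx1 values was not tested, beyond leaving out the pair of libraries.

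**Figure D2:**
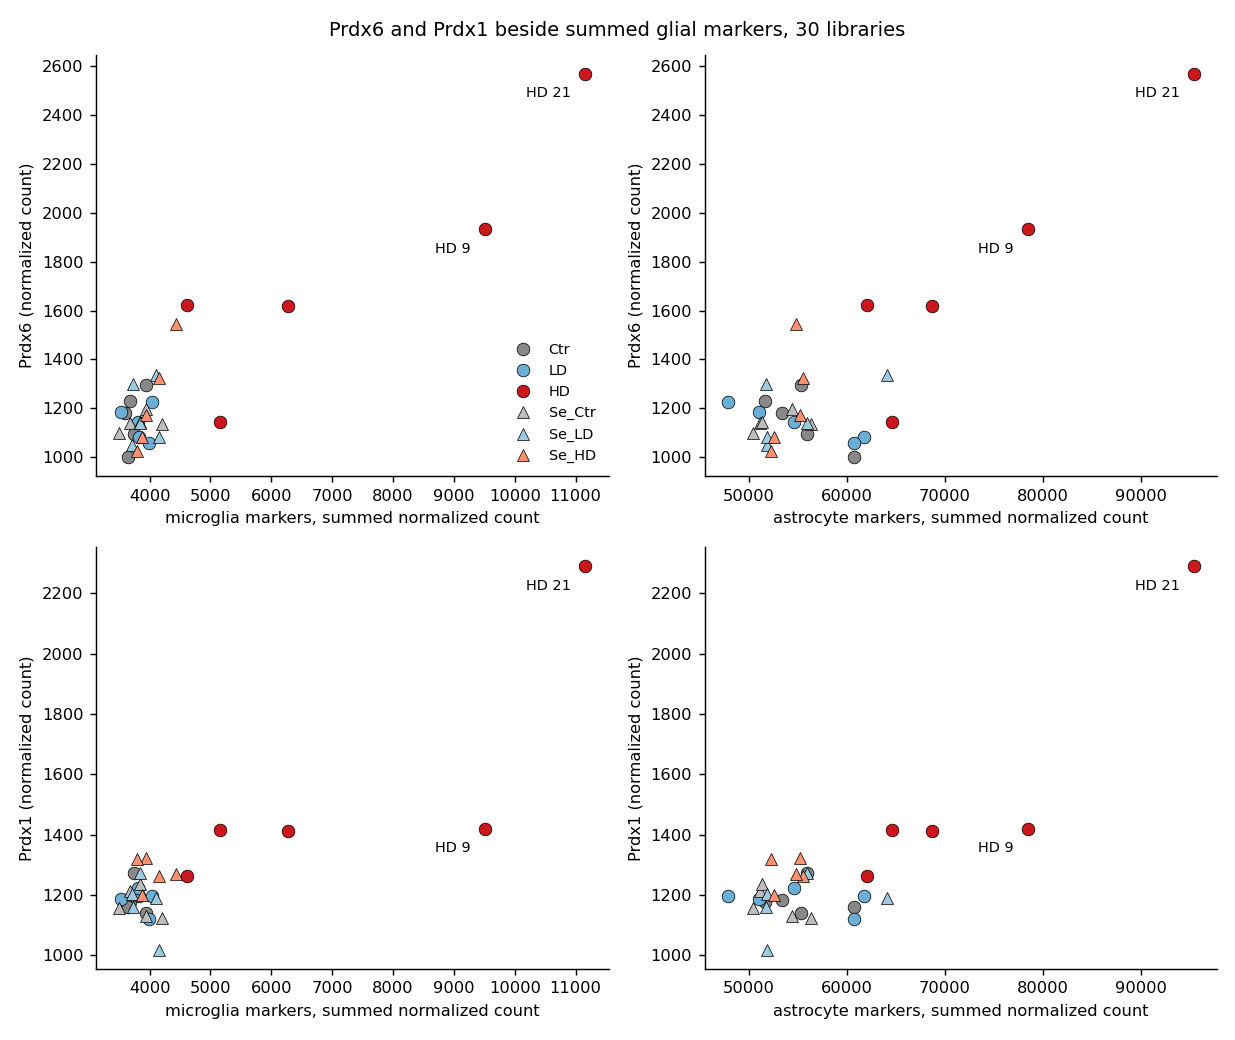
Prdx6 (upper panels) and Prdx1 (lower panels) in normalized counts against the summed normalized counts of 16 microglia markers (left) and 12 astrocyte markers (right) in 30 libraries. Each point is a library, with circles for groups without selenium and triangles for selenium groups, and HD libraries 9 and 21 lie at the upper right for Prdx6.

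Cat, which encodes catalase, was one of the members whose groups did not overlap. HD mice had 376, 400, 415, 457 and 528 normalized counts, all above the Ctr range of 343 to 370. The spread in HD mice, with an SD of 59.7, was wider than that in Ctr mice, with an SD of 13.0. Its log2 fold change was 0.28 with a 95% interval of 0.08 to 0.48 (limma, adjusted p = 0.320), and the exact permutation p was the smallest possible, 0.00794. Without HD library 3, which held the highest value, it was 0.21 and Cat was no longer counted. Without HD libraries 9 and 21 it stayed at 0.28 (adjusted p = 0.742) but missed the F test. HD library 3 also had the highest HD sum of 12 oligodendrocyte markers, 48240, whereas HD library 9, next for Cat, had 38310. Se_HD library 18 and Se_Ctr library 28 were the highest of their groups in both. Ctr library 7, the highest Ctr library for Cat, was not. The part of these markers in the Cat values was not tested.

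Sod3 had 113, 114, 125, 136 and 137 normalized counts in HD mice and 63.1, 77.3, 81.7, 109 and 114 in Ctr mice. Of the HD libraries 3 lay above every Ctr library, and the upper Ctr libraries reached the lower end of HD. On the log2 scale the fold change was 0.52 with a 95% interval of 0.16 to 0.87 (limma, adjusted p = 0.285), and the exact permutation p was 0.0238. Sod3 lost its call without Ctr library 25, at 0.40, without HD library 3, and, at 0.52, without HD libraries 9 and 21. The Ctr libraries with the lowest Sod3 values, 25 and 1, had choroid plexus sums of 2471 and 901 normalized counts, and the group medians of that sum were 11320 in Ctr and 28240 in HD mice. Their summed levels of 10 meninges and fibroblast markers, 2756 and 2221, were the lowest of the Ctr libraries, and that sum ran from 2221 to 5745 in Ctr and from 3774 to 7190 in HD mice. Other libraries did not follow the choroid plexus sum. HD library 9 had a choroid plexus sum of 7224 with 114 normalized counts of Sod3, and Ctr library 13 had 15170 with 81.7. Between HD and Ctr mice 0 of the 12 choroid plexus and 0 of the 10 meninges and fibroblast markers were counted. The part of these tissues in the Sod3 values was not tested.

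Prdx2, the peroxiredoxin that is abundant in neurons and red cells, was the other member without overlap, although it missed the test. Its HD values were 1377, 1389, 1393, 1414 and 1680 normalized counts and its Ctr values 1051, 1351, 1354, 1355 and 1364. All 5 HD libraries thus lay above all 5 Ctr libraries (exact permutation p = 0.00794), but by small steps apart from Ctr library 25 at the bottom and HD library 15 at the top. The fitted log2 fold change was 0.17 with a 95% interval of -0.05 to 0.39 (limma, adjusted p = 0.742), and without Ctr library 25 it was 0.09. Cat and Prdx2 were the 2 of 10 members with all HD above all Ctr libraries, where 0.978% of all genes had this pattern. Part of the Prdx2 exons, 177 bases or 5.8%, overlaps Rnaseh2a on the opposite strand, and the strand setting of the counting is not given in the sources used here.

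Sod1 and Sod2, the dismutases of the cytosol and of the mitochondrial matrix, did not pass the test. Sod1 ran from 776 to 955 in HD and from 565 to 891 normalized counts in Ctr mice, with a log2 fold change of 0.14 and an interval of -0.17 to 0.44. Sod2 ran from 1219 to 2262 in HD and from 1391 to 1860 in Ctr mice, with a log2 fold change of -0.09 and an interval of -0.40 to 0.22. The Sod2 values in HD mice thus reached below and above the Ctr range. HD libraries 9 and 21, the highest for Prdx6, were the lowest HD libraries for Sod2 with 1219 and 1256 normalized counts. They were also the lowest HD libraries in the summed level of 12 neuron markers, at 102800 and 83420 normalized counts, and of 12 oligodendrocyte markers, at 38310 and 30550. In the other 3 HD libraries these sums were at least 114000 and 42150, and in Ctr libraries they ran from 108100 to 121200 and from 36240 to 48180. Of each list 1 marker was counted as lower in HD than in Ctr mice, and none was at 0 in a group. Without HD libraries 9 and 21 the log2 fold change of Sod2 was 0.09 and thus of the opposite sign (limma, adjusted p = 0.953), and without HD library 15, the highest, it was -0.24, neither of which was counted. The part of these markers in the Sod2 values was not tested, beyond leaving out that pair of libraries.

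The peroxiredoxins of the organelles gave small or uncertain differences. Prdx3 had a log2 fold change of 0.02 with an interval of -0.17 to 0.20 between HD and Ctr mice. Prdx5, found in mitochondria, peroxisomes and cytosol, had 0.00 with an interval of -0.30 to 0.30. For Prdx4 the value was -0.19, with an interval of -0.67 to 0.29, the widest among the members in this comparison. Prdx5 shares 409 bases, or 19.1% of its exons, with Trmt112 on the opposite strand, a gene with a mean of 21.6 normalized counts beside 789 for Prdx5.

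**Figure D3:**
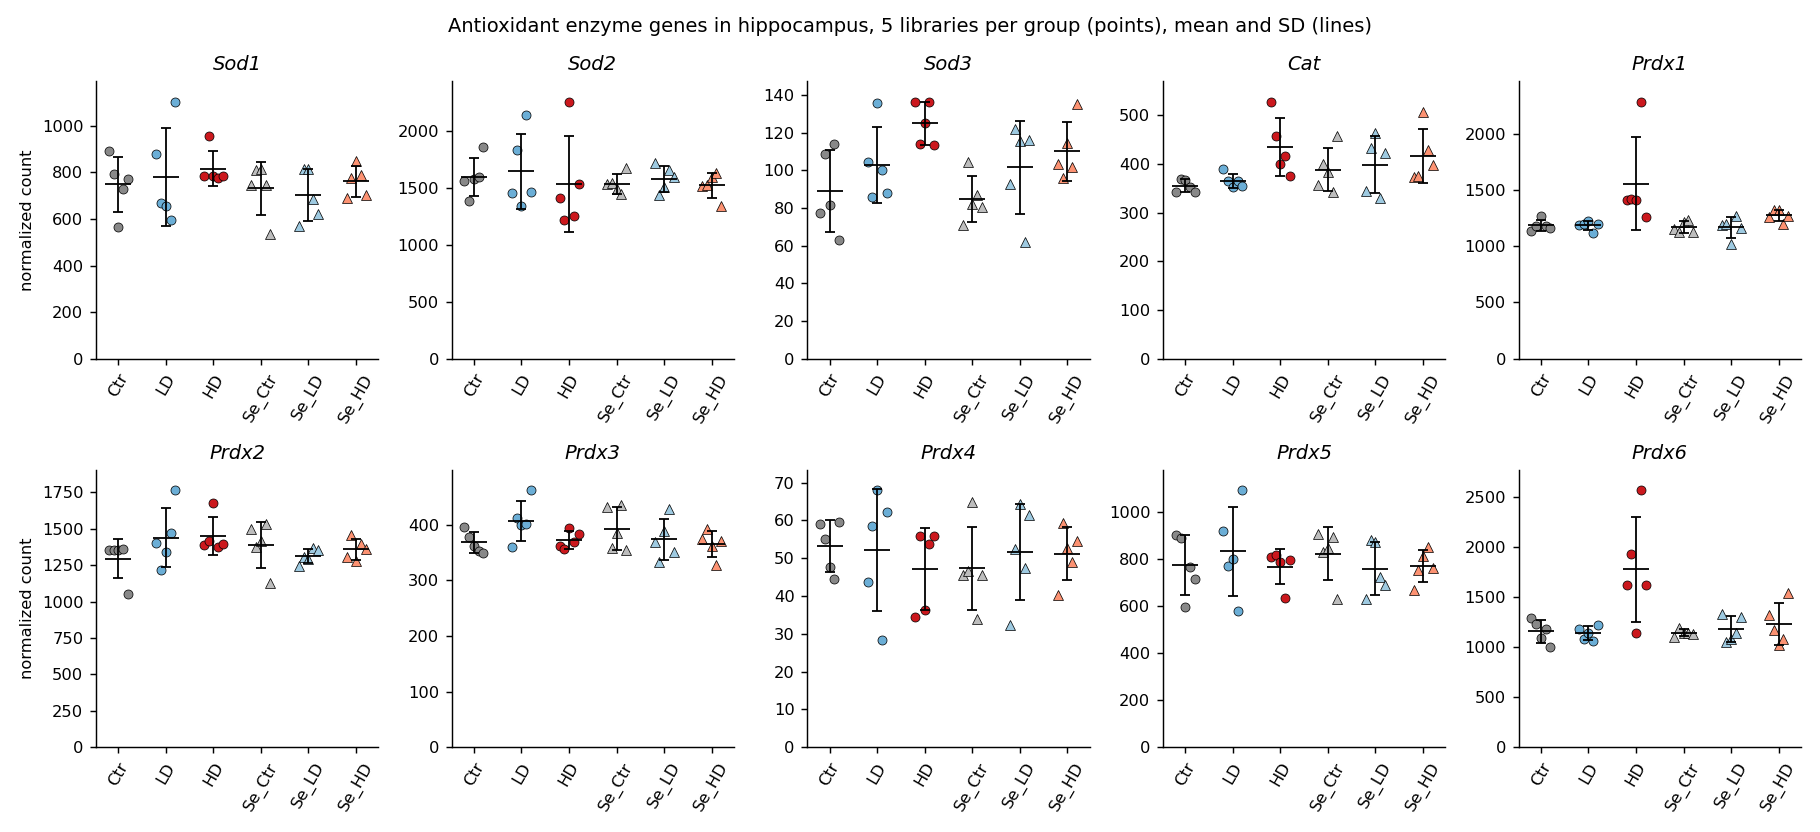
Normalized counts of the 10 genes in the 30 libraries, by group. Points are libraries, with circles for groups without selenium and triangles for selenium groups, and lines are the mean and the SD of 5 libraries. Prdx6 and Prdx1 spread upward in HD, and Cat in HD lies above all Ctr values.

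The promoters of Cat and Prdx1, which were both counted in HD mice, are shown because they differ in the antioxidant response element, the site that the transcription factor encoded by Nfe2l2 binds. RefSeq promoter sequences of the GRCm38.p6 build were matched for 8 of the 10 members, Sod3 and Prdx6 not among them. The 250 bases before the start of each gene are given 5′ to 3′ on the strand of the gene. Cat lies on the minus strand at chr2:103485154-103485403 and Prdx1 on the plus strand at chr4:116685349-116685598. Capitals mark matches on either strand to TGACNNNGC (the core of the antioxidant response element), TGANTCA (AP-1), GGGCGG (GC box) or CCAAT.
Cat: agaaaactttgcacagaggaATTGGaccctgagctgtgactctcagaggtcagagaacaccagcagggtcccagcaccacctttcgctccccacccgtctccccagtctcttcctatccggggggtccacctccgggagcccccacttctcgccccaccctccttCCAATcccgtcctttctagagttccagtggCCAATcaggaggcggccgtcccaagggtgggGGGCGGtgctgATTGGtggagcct
Prdx1: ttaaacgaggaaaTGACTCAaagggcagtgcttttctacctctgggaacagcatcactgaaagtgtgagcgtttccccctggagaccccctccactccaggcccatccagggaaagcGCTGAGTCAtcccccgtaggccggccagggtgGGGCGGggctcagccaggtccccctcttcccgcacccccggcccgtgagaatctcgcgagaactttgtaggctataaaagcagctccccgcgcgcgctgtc
In Prdx1 the run GCTGAGTCA is the reverse complement of an antioxidant response element core and overlaps an AP-1 match, and TGACTCA lies further upstream. Cat held 0 matches to either motif, but 4 CCAAT matches and 1 GC box. Over the 8 members the antioxidant response element core was found in 2, Prdx1 and Sod1, and an AP-1 match in Prdx1. Among 32851 promoters of that length, 10.2% held the core, 6.75% AP-1, 32.7% the GC box and 33.8% CCAAT. These matches describe letters in a window and were not tested for binding or effect.

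The second question was whether the low dose did the same. In LD mice 0 of the 10 members were counted against Ctr, where 1.46% of all genes were. None had an unadjusted p under 0.05, and edgeR and DESeq2 also counted 0. The lowest adjusted p was 0.999. HD and LD are compared with the same Ctr libraries, so their values share the error of these.

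Each of the 4 members that were higher in HD had an LD mean close to that of Ctr, apart from Sod3. Prdx6 ran from 1059 to 1226 normalized counts in LD mice, inside the Ctr range, and its log2 fold change was -0.02 with an interval of -0.32 to 0.28. Prdx1 had a log2 fold change of 0.00 with an interval of -0.25 to 0.25, and Cat of 0.04 with an interval of -0.16 to 0.24. Sod3 had 103 ± 20.1 in LD against 89.0 ± 21.7 (SD, n = 5) normalized counts in Ctr mice, and the log2 fold change of 0.22 had an interval of -0.13 to 0.57. Among the others, Prdx3 came nearest to a difference, with 4 of 5 LD libraries above every Ctr library, a log2 fold change of 0.14 and an exact permutation p of 0.0556.

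Between the doses, 3 of 10 members were counted as higher in HD than in LD mice, where 4.49% of all genes were counted and 3.04% were higher. Prdx6 differed by a log2 fold change of 0.60 (limma, adjusted p = 0.138), Prdx1 by 0.36 (adjusted p = 0.396) and Cat by 0.24 (adjusted p = 0.561). Cat lost its call without HD library 3. For Prdx1 all 5 HD libraries, from 1262 upward, lay above all LD libraries, which ended at 1224 normalized counts. In 0.869% of all genes HD lay wholly above LD. The 0 members with an adjusted p under 0.05 in limma stood beside 0 in edgeR and 1, Prdx6, in DESeq2, and 0.0499% of all genes passed in limma and 0.869% in DESeq2. Without HD libraries 9 and 21 Prdx6 was still counted, at 0.35, whereas Cat at 0.23 and Prdx1 at 0.20 were not, and 2.33% of all genes were. Without HD library 21 alone Prdx1 was at 0.22 and still counted.

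**Figure D4:**
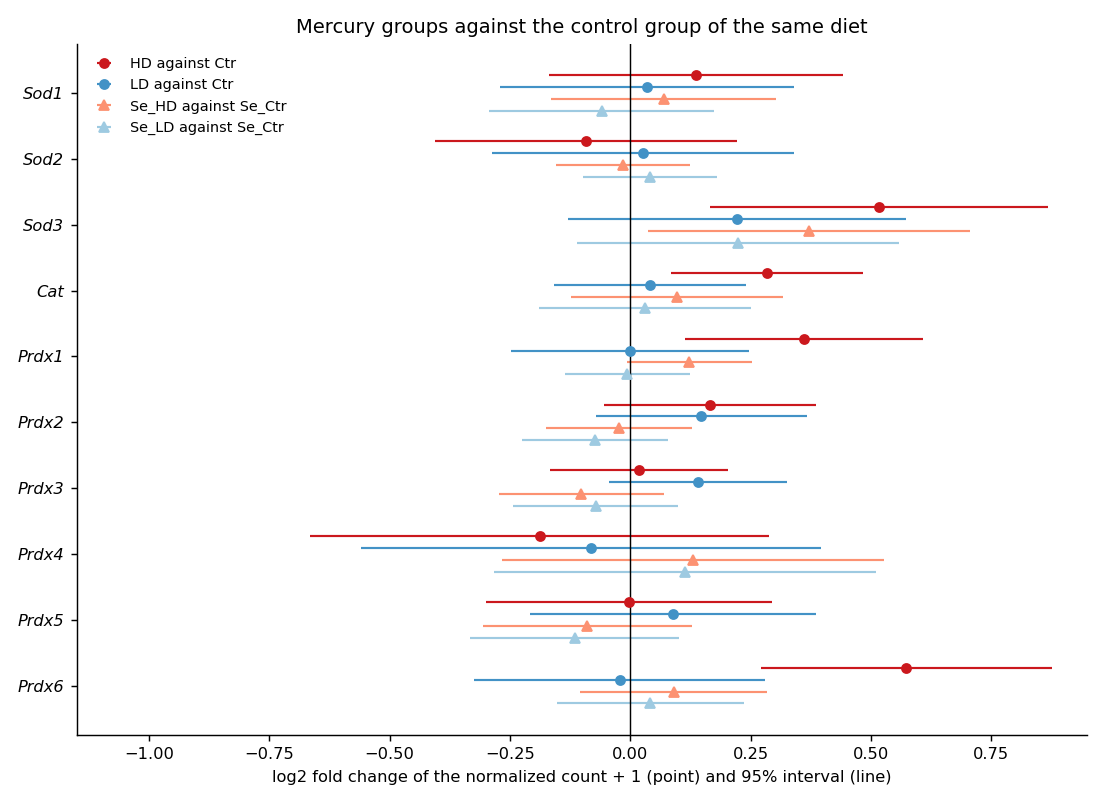
Log2 fold change of the normalized count plus 1 (points) with its 95% interval (lines) for the 10 genes, in each mercury group against the control group of the same diet. In HD against Ctr the intervals of Sod3, Cat, Prdx1 and Prdx6 lie above 0, and the intervals of LD against Ctr all include 0.

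The third question was how the mercury groups with selenium behaved. In Se_HD against Se_Ctr mice 0 of 10 members were counted, where 2.06% of all genes were, and edgeR and DESeq2 counted 0 as well. At an unadjusted p under 0.05 of the contrast alone there was 1, Sod3. Its values were 96.1, 102, 103, 114 and 135 normalized counts in Se_HD and 71.2, 80.7, 82.1, 86.7 and 105 in Se_Ctr mice. The groups overlapped, with 2 Se_HD libraries above every Se_Ctr library. Its log2 fold change was 0.37 with an interval of 0.04 to 0.71 and an exact permutation p of 0.0317, and the F test over the 3 selenium groups was not passed. Of the 10 meninges and fibroblast markers 7 were counted as higher in Se_HD mice, and their summed level, of which Igf2 made up 69.6%, was 5434 to 7774 normalized counts in Se_HD and 2286 to 4929 in Se_Ctr libraries, with no marker at 0 in either group. Of the 12 choroid plexus markers 0 were counted, and their sums overlapped, with medians of 29630 in Se_HD and 14620 in Se_Ctr mice. Se_HD library 30 had the highest value of Sod3 and of the meninges and fibroblast sum. Se_HD library 12 had the lowest Se_HD value of Sod3 and a sum of 6411, above the 5434 of Se_HD library 6. The part of these markers in the Sod3 values was not tested.

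Prdx1 had 1200, 1262, 1271, 1321 and 1323 normalized counts in Se_HD mice and 1123, 1129, 1157, 1212 and 1238 in Se_Ctr mice. Of the Se_HD libraries 4 lay above every Se_Ctr library (exact permutation p = 0.0238), but limma's contrast missed the threshold, with a log2 fold change of 0.12 and an interval of -0.01 to 0.25. Prdx6 had 1026, 1082, 1172, 1325 and 1545 normalized counts in Se_HD and 1099, 1137, 1140, 1143 and 1197 in Se_Ctr mice. Its Se_HD values lay on both sides of the narrow Se_Ctr range, and the log2 fold change of 0.09 had an interval of -0.10 to 0.28. Cat had 0.10 with an interval of -0.12 to 0.32.

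Whether the effect of the high dose differed between the diets was tested as a difference of the 2 log2 fold changes in a fit of all 30 libraries. For Prdx6 it was smaller with selenium by a log2 difference of -0.48, with an interval of -0.85 to -0.11 (limma, adjusted p = 0.910). This was the 1 of 10 members counted at an unadjusted p under 0.05, where 4.77% of all 21383 genes were, 2.96% with a negative difference. After adjustment 0 members passed with limma, edgeR or DESeq2, and 0% of all genes did with limma. Without HD libraries 9 and 21 the difference for Prdx6 was -0.23 (adjusted p = 0.989) and the call was lost. Prdx1 had -0.24 with an interval of -0.51 to 0.04, Cat -0.19 with an interval of -0.48 to 0.10, and Sod3 -0.14 with an interval of -0.63 to 0.34.

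Set directly against HD mice, Se_HD mice had lower Prdx6 by a log2 fold change of -0.50 (limma, adjusted p = 0.0964) and lower Prdx1 by -0.26 (adjusted p = 0.396). These were 2 of 10 members at an unadjusted p under 0.05, beside 8.38% of all genes, 5.28% being lower. After adjustment 0 passed with limma, where 0.327% of all genes did, and 1, Prdx6, with each of edgeR and DESeq2, where 0.781% and 1.05% of all genes did. Without HD libraries 9 and 21 Prdx6 was at -0.25 and still counted, and Prdx1 was at -0.09 and was not, beside 6.86% of all genes counted. Prdx1 also lost its call without HD library 21 alone, at -0.11. The summed microglia and astrocyte markers given above were also lower in every Se_HD than in every HD library.

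Selenium was not accompanied by a counted member in mice without mercury or at the low dose. In Se_Ctr against Ctr mice 0 of 10 members were counted, where 4.00% of all genes were, and in Se_LD against LD mice 0 of 10, where 2.86% were; edgeR and DESeq2 also counted 0 in both. The log2 fold changes of the members lay between -0.19 for Prdx4 and 0.12 for Cat in the first of these, and between -0.13 for Sod1 and 0.11 for Cat in the other. Over the 3 mercury levels, 1 of 10 was counted, Prdx6 at -0.15 (limma, adjusted p = 0.752), beside 6.62% of all genes. That call was lost without HD libraries 9 and 21 together, at -0.07, and held in only 12 of 30 fits that each left out a single library, with values from -0.20 to -0.11. It was lost without any 1 of Ctr libraries 1, 7 and 19, LD libraries 2, 14 and 26, HD libraries 9 and 21, Se_Ctr libraries 4, 16, 22 and 28, Se_LD libraries 11, 17 and 23, and Se_HD libraries 12, 18 and 24.

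Se_LD against Se_Ctr mice gave 0 of 10, where 1.46% of all genes were counted, and Se_HD against Se_LD mice gave 0 of 10, where 2.47% were. Neither had a member at an unadjusted p under 0.05, and edgeR and DESeq2 counted 0 in both. The difference of the LD effect between the diets gave 0 of 10, beside 3.75% of all genes, and nearest to the threshold was Prdx3 at -0.21 with an interval of -0.45 to 0.02. LD against control over both diets gave 0 of 10 in limma and edgeR, beside 2.69% of all genes in limma, and 1, Sod3, in DESeq2, beside 1.88%.

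Sod3, Prdx6, Prdx1 and Cat were also higher in the high-dose mice when both diets were averaged. Sod3 was higher by a log2 fold change of 0.44 with an interval of 0.20 to 0.69 (limma, adjusted p = 0.122), Prdx6 by 0.33 (adjusted p = 0.136), Prdx1 by 0.24 (adjusted p = 0.150) and Cat by 0.19 (adjusted p = 0.345). Thus 4 of 10 members were counted, all higher, where 9.09% of all genes were counted and 5.28% were higher. The adjusted threshold was passed by 0 members in limma and edgeR and by 3, Sod3, Prdx6 and Prdx1, in DESeq2, and by 0.21% of all genes in limma and 0.856% in DESeq2. These 4 calls held without HD libraries 9 and 21, at 0.44 for Sod3, 0.21 for Prdx6, 0.16 for Prdx1 and 0.19 for Cat, beside 7.86% of all genes counted. The HD libraries enter both this average and the comparison with Ctr, so the average is not independent of it.

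The genes around these enzymes were read from 6 lists with 104 entries, of which 101 were tested in HD against Ctr mice. Of these, 12 were counted and all 12 were higher, or 11.9% beside the 5.09% of all genes. They stood in 3 of the lists. Without HD libraries 9 and 21 the count was 7, and the share of all genes counted was 3.09%. Of 27 tested sources of superoxide and hydrogen peroxide 8 were higher. Of 12 genes listed as other peroxide-removing enzymes 2 were, the heme oxygenase Hmox1 and Mgst1, which has peroxidase activity. Of 15 antioxidant transcription factors 2 were. The 10 genes of metal supply to the dismutases, the 15 genes that recycle or repair peroxiredoxins and the 22 genes of peroxisome assembly and import had 0 counted by limma's rule. The medians of the log2 fold change were 0.17, 0.01 and -0.06 in these 3 lists and 0.16, 0.19 and -0.02 in the first 3, beside 0.01 over all genes.

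Among the sources of reactive oxygen, Aox1, an aldehyde oxidase that gives off hydrogen peroxide, had 189 ± 35.1 in HD against 102 ± 18.9 (SD, n = 5) normalized counts in Ctr mice. All 5 HD libraries, from 145 upward, lay above all Ctr libraries, which ended at 121. The log2 fold change was 0.89 (limma, adjusted p = 0.0240), and Aox1 was the 1 gene of the lists with an adjusted p under 0.05. Of the subunits of the NADPH oxidase of phagocytes, Cyba was higher by 1.01 and Ncf1 by 0.76 on the log2 scale. Other counted genes of this list were Cybb, Ncf4, Rac2 and Xdh, of which the first 3 also belong to the phagocyte oxidase. Cybb and Ncf4 averaged under 10 normalized counts over the 30 libraries. The microglia markers given above were higher in the same HD libraries, and their part in these genes was not tested.

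Hmox1, the heme oxygenase induced by oxidants, had 108 ± 70.1 in HD against 39.0 ± 8.37 (SD, n = 5) normalized counts in Ctr mice. Its HD values ran from 58.5 to 230 and lay above all Ctr values, which ended at 49.1, with a log2 fold change of 1.29 (limma, adjusted p = 0.0863). Mgst1, a membrane-bound glutathione transferase with peroxidase activity, was higher by 0.78 (adjusted p = 0.161). Nfe2l2, the activator at antioxidant response elements, had 191 ± 42.6 in HD against 132 ± 13.6 (SD, n = 5) normalized counts, without overlap and with a log2 fold change of 0.51 (adjusted p = 0.271). Bach1, a repressor at the same elements, was higher by 0.44 (adjusted p = 0.446).

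In Se_HD against Se_Ctr mice 5 of 100 tested list genes were counted, or 5.00% beside 2.06% of all genes, all higher. They were Nfe2l2 with a log2 fold change of 0.35, Bach1 with 0.24, Mgst1 with 0.48, Cybb with 0.88 and Hao2 with 1.28. Cybb averaged under 10 normalized counts over the 30 libraries. Hmox1 had 53.9 ± 9.92 in Se_HD against 45.2 ± 3.48 (SD, n = 5) normalized counts in Se_Ctr mice. Of 102 list genes tested for a difference of the high-dose effect between the diets, 6 were counted, all with a negative difference, or 5.88% beside the 4.77% of all genes, and 0 passed after adjustment. The difference for Hmox1 was -1.06, that of Cyba -0.82 and that of Aox1 -0.54, each at an unadjusted p under 0.05 in limma's contrast. For Nfe2l2 it was -0.16, for Bach1 -0.21 and for Mgst1 -0.30, which did not pass. In LD against Ctr mice 2 of 101 were counted, Aox1 with 0.39 and Gpx2 with 1.13, or 1.98% beside the 1.46% of all genes, and 0 passed after adjustment. Both of these shares were close to those of all genes.

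**Figure D5:**
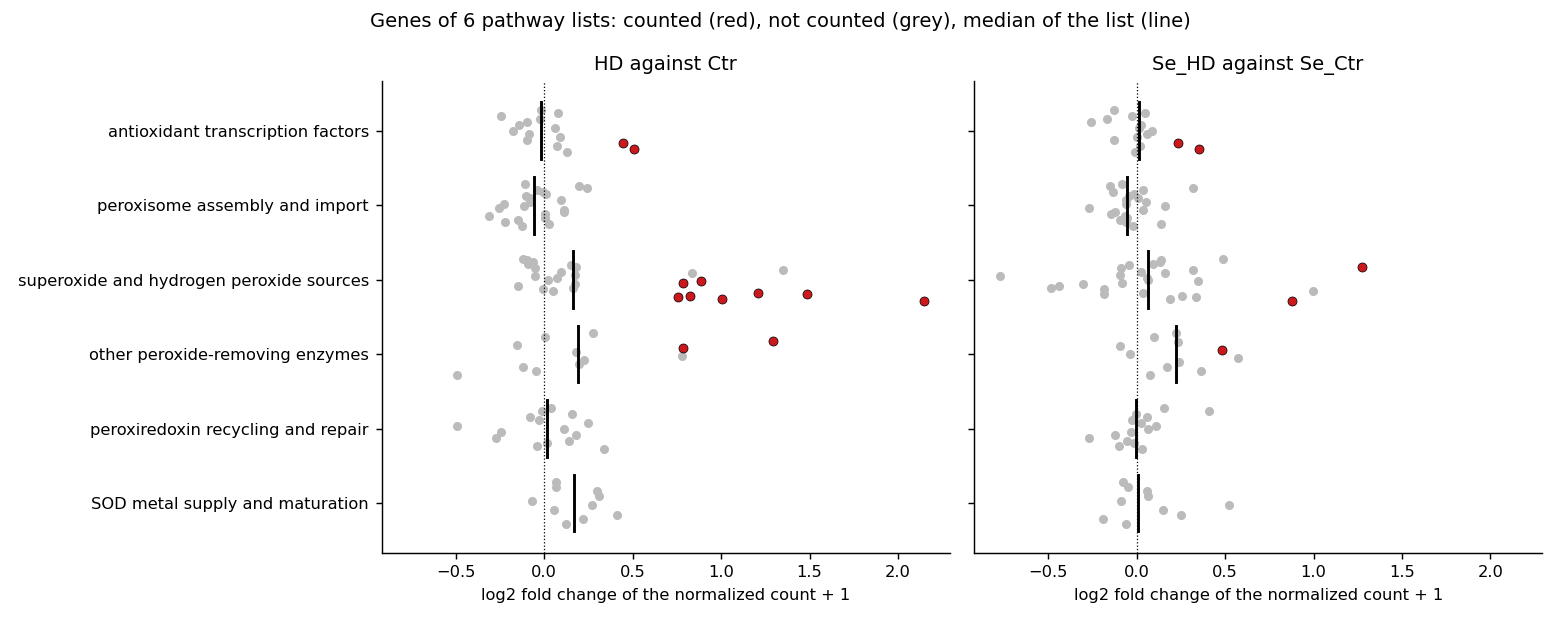
Log2 fold change of the normalized count plus 1 for the genes of 6 lists, in HD against Ctr (left) and Se_HD against Se_Ctr (right). Each point is a gene, red where counted and grey where not, and black lines are list medians. The counted genes all lie to the right of 0, with 12 on the left panel and 5 on the right.

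How the members varied together was described over the 30 libraries after the group means were removed from log2 of the normalized count plus 1. Of 45 pairs 4 had a Benjamini-Hochberg adjusted permutation p under 0.05. Sod1 and Prdx5 rose and fell together with Pearson's r = 0.88 (adjusted permutation p = 0.00045) and Spearman's rho = 0.85, and with r = 0.84 after the 2 libraries farthest from the median of Sod1 were left out. Cat and Prdx3 ran against each other with r = -0.56 (adjusted permutation p = 0.0185), rho = -0.59 and r = -0.63 without the 2 farthest libraries. Sod2 and Prdx6 had r = -0.67 (adjusted permutation p = 0.00518), rho = -0.52 and r = -0.51 without them, and Prdx2 and Prdx3 had r = 0.53 (adjusted permutation p = 0.0286), rho = 0.48 and r = 0.37. For the last 2 pairs rho had an adjusted permutation p of 0.0552 and 0.0848. All genes of a library share its RNA and its size factor.

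The genes whose pattern over the 30 libraries was most like that of a member were taken among genes averaging at least 100 normalized counts, as a description by Pearson's r and with the group differences left in. For Prdx6 these were Ctss with r = 0.92, Slc14a1 with 0.88 and Col16a1 with 0.87. Ctss encodes a protease of microglia and is also on the microglia list. For Prdx1 they were Stat3 and Spp1 with 0.90 each and Dhrs1 with 0.89, and for Sod3 they were Tcn2 with 0.84, Vamp8 with 0.82 and Neat1 with 0.75. Cat had lower values, with Gm2a at 0.71, Homer3 at 0.68 and Slc29a4 at 0.67. Sod1 was nearest to Uchl1 with 0.92, Rpl8 with 0.90 and Uqcrq with 0.88, and Prdx5 to Raly with 0.89, 1500011K16Rik with 0.88 and Ndufb8 with 0.88. For Prdx2 the nearest were Nedd8 with 0.92, Atp6v1f with 0.89 and Ndufs6 with 0.86. Sod2 was nearest to St6galnac5 with 0.89 and to Btrc with 0.88. Prdx3 followed Vip with 0.71, Pgk1 with 0.68 and Letm1 with 0.64, and Prdx4 followed Abhd11 with 0.66, Degs1 with 0.63 and Slc48a1 with 0.62.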

How the data were processed

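Hippocampus RNA of 30 male BALB/c mice, 5 in each of 6 groups, was sequenced. Per the labels and the methods of the study, the authors trimmed reads with Trim Galore 0.4.2, mapped them with HISAT2 to NCBIM37, counted them per gene with featureCounts and normalized them with DESeq2. The values they deposited are signal: gene counts divided by a size factor for each library, so genes of different length are comparable only per kb of exon. Whole reads could be recovered for 100% of values (tolerance 0.01). The deposited size factors did not correct for cell composition. Reads on genes were 5768208 to 11510521 per library, and the text gives the reads behind low members. Gene lengths and positions came from the GENCODE annotation of NCBIM37, which gave a symbol for 21326 of the 21412 identifiers. Prdx6b, Prdx6-ps2 and Prdx2-rs3, copies whose reads could be shared with members, have no row.

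The tests were run in R 4.3.3 with limma 3.58.1 and a variance trend, on log2 of normalized counts plus 1, over the 15 libraries of a diet or, for contrasts between diets, over all 30, for genes with a sum of at least 10. Contrasts within a diet also needed the F test over its 3 groups, after the order of tests in the study, and contrasts over all 30 libraries did not. P-values were adjusted over all genes tested. Exact two-sided permutation tests compared 5 with 5 mice, and pairs of members were permuted 100000 times. A list gene is named where counted in HD with a mean of at least 10, up to 4 per list by p, and genes outside this rule were named after their values were seen. The members and lists were chosen with earlier results of these data known. Alternatives were pseudocounts of 0.1 and 10, filters, quantile normalization, size factors within the fit, sets of 6 consecutive library numbers as a covariate, no trend, the contrast alone, all 30 libraries in a fit, edgeR 4.0.16, DESeq2 1.42.0, leaving out each library and, added after seeing the data, leaving out HD libraries 9 and 21. The fits were tested on simulated data. Tables and figures used pandas 2.3.3, numpy 2.4.6, scipy 1.17.1 and matplotlib 3.10.9 in Python 3.11.15. Some genes that the naming rule or the likeness of pattern would name are not reported here. The proteomic data were not analysed here.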

Additional observations from a re-analysis of the deposited data

Results flagged for a closer look

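Within a group of 5, a library was singled out where its gap to the nearest other, divided by the range of the group, passed Dixon's critical value of 0.71. This held for 7 of 60 groups, where chance gives about 3. Sod1 stood out in HD library 9 (ratio 0.94), with 955 normalized counts against 776 to 787 in the other 4. Prdx1 in HD library 21 had a ratio of 0.848 and Prdx5 in the same library, at the low end, 0.829. Prdx2 was low in Ctr library 25 (0.957) and high in HD library 15 (0.878). In Se_Ctr library 28 both Sod1 (0.751) and Prdx5 (0.726) were low. The effect of the high dose on Prdx6 differed between the diets in limma's contrast, by -0.48 on the log2 scale (adjusted p = 0.910).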

How the results depend on the processing

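Of 1500 member values under another setting 2 gained and 10 lost a call, of 2000 with a single library left out 19 gained and 23 lost one, and 0 counted values changed sign. In HD against Ctr, 4 members fell to 1 without HD libraries 9 and 21, where all genes counted fell from 1019 to 607, and were 2 to 4 when single libraries were left out, and the 12 list genes were 7 without both libraries, 12 to 17 under the other settings and 8 to 15 over left-out libraries. Members with an adjusted p under 0.05 were 1 in a fit of all 30 libraries, 1 in DESeq2 and 0 to 1 over left-out libraries. HD against LD gave 1 without both libraries, and its adjusted count was 1 over all 30 libraries, 1 in DESeq2 and 0 to 1 over left-out libraries. Se_HD against Se_Ctr gave 1 from the contrast alone and 0 to 1 over left-out libraries, the range also of Se_LD against Se_Ctr, Se_HD against Se_LD and Se_LD against LD. Se_HD against HD gave 1 without both libraries and 1 to 2 over left-out libraries, with adjusted counts of 1 in edgeR, 1 in DESeq2 and 0 to 1. The selenium contrast gave 0 with quantile normalization, without the trend and without both libraries, and 0 to 2 over left-out libraries. Over both diets, the adjusted HD count was 3 in DESeq2 and 0 to 1 over left-out libraries, and the LD count was 1 in DESeq2 and 0 to 1. The diet difference gave 0 without both libraries and 1 to 2 over left-out libraries for HD, and 0 to 2 for LD. The causes were not tested. The labels give no shared replicate numbers, so mice were not paired. Each set of 6 consecutive library numbers held 1 library of every group. With these sets as a covariate 989 of all genes were counted in HD against Ctr, beside 1019 without it. Whether the sets were blocks of the experiment is not given in the labels. Without Se_LD library 23, Sod3 passed in Se_LD against Se_Ctr at 0.39. With 5 mice a group, the intervals in the text limit the differences that could be seen, and Prdx4 and Sod3 had the fewest reads.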
